A study of Homo sapiens with 12 samples.

Results

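The matrix metalloproteinases (MMP), the ADAMTS proteases and their tissue inhibitors (TIMP) were followed in LN229, an established human glioblastoma cell line. A gene belonged to the family when its symbol was MMP, ADAMTS or TIMP followed by a number, and it was read from a probe set that the platform annotation pairs with that symbol alone. This gave 43 of the 14232 genes measured, made up of 22 MMP, 17 ADAMTS and 4 TIMP genes. The 12 arrays, 3 per group, held RNA of 4 groups: cells at 1% oxygen with siRNA against HIF1A, cells at 1% oxygen with siRNA against HIF2A (gene symbol EPAS1), cells at 1% oxygen with non-targeting siRNA (hypoxic control), and cells at 20% oxygen with non-targeting siRNA (normoxic control). Every group had been transfected with an siRNA 24 h after seeding, moved to its oxygen level 48 h later and harvested after 16 h, so all comparisons are between transfected cells. The study asked which hypoxia-regulated genes depend on HIF-1A and which on HIF-2A. LN229 is 1 line grown alone, without the vessels and immune cells of a tumour. Nothing in the labels says whether the 3 replicates of a group were grown separately. The p-values therefore cover the spread among these samples only, and that spread may be technical.

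MMPs are zinc proteases that cut collagens, laminins and other matrix proteins. Most are secreted as inactive proenzymes, while the membrane-type MMPs sit on the cell surface and can activate others. ADAMTS enzymes are secreted zinc proteases of which some cut the proteoglycans that fill the spaces of brain tissue, some trim procollagen, and others act on microfibrils or blood proteins. TIMPs block MMPs by binding the active site, and TIMP3, which stays bound to the matrix, also blocks ADAM and ADAMTS enzymes. In glioblastoma this family is known for its part in invasion, and the hypoxia-inducible factors HIF-1A and HIF-2A are known regulators of genes for matrix remodelling.

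The targeted transcripts were low in the groups that carry their siRNA. HIF1A measured 8.20, 9.06 and 7.74 on the log2 scale with HIF1A siRNA, against 11.72, 11.40 and 11.26 in the hypoxic control (log2 change -3.13, SE 0.27, n = 3 arrays per group, limma adjusted p = 1.6e-04). EPAS1 measured 7.18, 6.99 and 7.18 with HIF2A siRNA, against 9.74, 9.57 and 9.83 in the hypoxic control (-2.59, SE 0.15, adjusted p = 3.13e-05), and it was also lower with HIF1A siRNA (-1.48, SE 0.15, adjusted p = 3.13e-04). EPAS1 was higher in the hypoxic than in the normoxic control (1.19, SE 0.15, limma adjusted p = 7.15e-04). With HIF1A siRNA it was not called against the normoxic control (-0.29, SE 0.15, adjusted p = 0.148). Values spread over a smaller range with HIF1A siRNA: the upper quartiles of those arrays were 8.22, 8.20 and 7.88, against 8.24 to 8.44 with HIF2A siRNA, 8.27 to 8.5 in the hypoxic control and 8.47 to 8.57 in the normoxic control, and replicate 3 was the lowest of all 12. Lower quartiles lay between 4.73 and 4.79 on every array. Of 11 measured glial and glioma markers, 8 were above the lower quartile on all 12 arrays, among them GFAP, S100B, VIM, NES and EGFR, while the astrocyte water channel AQP4 was above it on none. Of 9 microglial and macrophage genes, 2 (TYROBP and CD14) were above it on all 12 arrays and 5, among them PTPRC, AIF1 and P2RY12, on none. Of 8 endothelial genes, 4 (CDH5, VWF, CLDN5 and ESAM) were above it on all 12 and 4, among them PECAM1 and KDR, on none. Above it on all 12 arrays were also 6 of 7 neuronal, 4 of 5 oligodendrocyte, 3 of 4 neutrophil and 3 of 7 epithelial genes. Lying above the lower quartile therefore does not tell cell types apart.

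The deposited values hold no detection call, so the lower quartile over all probe sets of an array was used as a mark of low signal. Of the 43 members, 29 (67.4%) were above it on all 12 arrays, against 10974 of 14232 genes (77.1%), and 13 were above it on none. ADAMTS6 was above it on 9 arrays by the probe set used, while its other probe set, at 4.05 to 4.59, was above it on none. Members that lay above it on every array included all 4 TIMPs, both gelatinases, all 6 membrane-type MMPs, all 6 measured proteoglycan-cleaving ADAMTS enzymes (ADAMTS1, ADAMTS4, ADAMTS5, ADAMTS8, ADAMTS9 and ADAMTS15) and all 3 procollagen-trimming ones (ADAMTS2, ADAMTS3 and ADAMTS14). Of the 8 other ADAMTS genes, 5 did so: ADAMTS10, ADAMTS12, ADAMTS13, which cuts von Willebrand factor, ADAMTS16 and ADAMTS17. ADAMTS18 and ADAMTS19 did so on no array.

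The members with low signal were mostly secreted MMPs. Collagenases cut fibrillar collagen, and stromelysins and matrilysins cut many other matrix proteins. None of the 3 collagenases (MMP1, MMP8 and MMP13), whose means over the 12 arrays were 2.89 to 3.63, and neither of the 2 matrilysins (MMP7 and MMP26), at 3.07 and 3.22, was above the lower quartile on any array. Of 3 stromelysins, MMP11 was above it on all 12 arrays, and MMP3 and MMP10 on none. Of 6 other MMPs, MMP21 and MMP28 were above it on every array, and MMP12, MMP19, MMP20 and MMP27 on none. A further probe set that the annotation pairs with both MMP19 and TMEM198B, and that cannot be assigned to either, read 7.54 to 8.25 over the 12 arrays, with a log2 change of 0.44 between hypoxia and normoxia (SE 0.10, limma unadjusted p = 0.000827), so the low signal of MMP19 rests on 1 probe set. In the RefSeq gene table of GRCh38.p14, 9 of these genes are adjacent protein-coding neighbours on chromosome 11, in the order MMP7, MMP20, MMP27, MMP8, MMP10, MMP1, MMP3, MMP12 and MMP13, and all 9 were above the lower quartile on no array. Outside that cluster 29 of 34 members were above it on all 12 arrays and 4 on none. The other neighbouring members, ADAMTS8 with ADAMTS15 on chromosome 11 and ADAMTS1 with ADAMTS5 on chromosome 21, were all above it on every array. Probe sets differ in how they bind, so setting a gene against a quartile of all probe sets is only a rough guide to its level. A low signal does not show that a gene is silent.

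**Figure D1:**
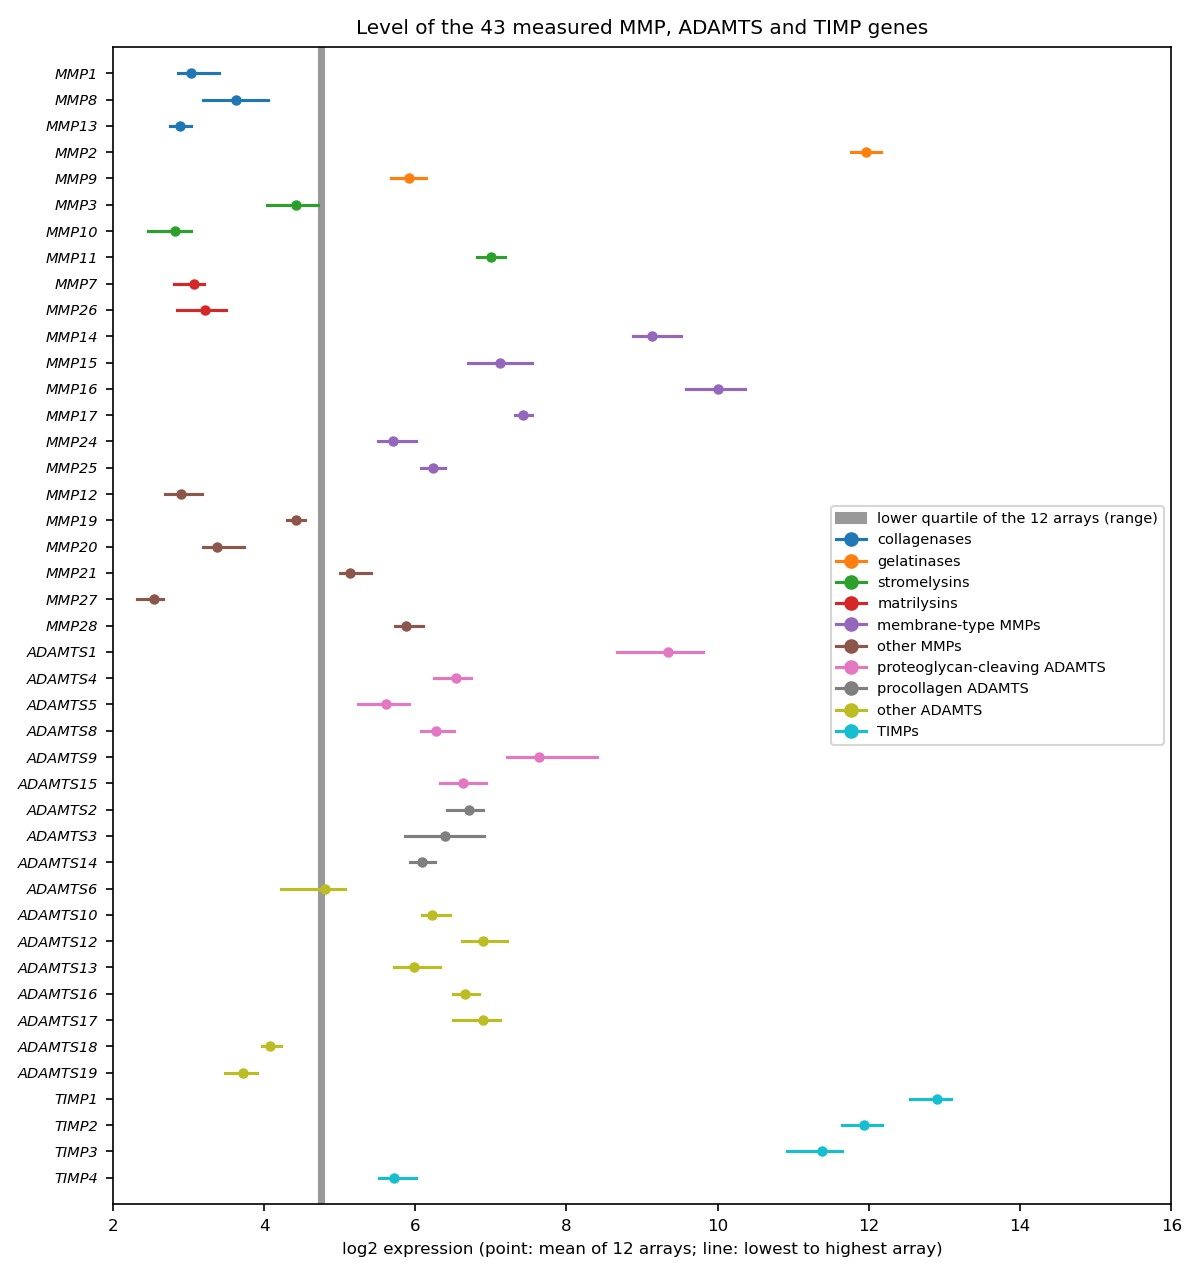
Log2 expression of the 43 family members, grouped by role (colours). Points are means over the 12 arrays, lines run from the lowest to the highest array, and the grey band spans the lower quartiles of the 12 arrays (4.73 to 4.79). The collagenases and matrilysins lie left of the band, and all TIMPs, gelatinases and membrane-type MMPs lie right of it.

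Of the 43 members, 10 were called in at least 1 of the 6 comparisons between groups, at an adjusted p under 0.05: MMP14, MMP15, ADAMTS1, ADAMTS3, ADAMTS8, ADAMTS9, ADAMTS12, ADAMTS15, ADAMTS17 and TIMP3. All 10 were above the lower quartile on every array. Promoter sequence was searched for the core letters of the hypoxia response element, ACGTG or GCGTG on either strand. RefSeq promoters (GRCh38.p14, 250 bases before to 50 after the start of the gene) were given for 24 of the 43 members, and 14 of these (58.3%) held such a match, against 57.2% of 11385 measured genes and 48.4% of all 27305 promoters in the table. The letters ACGTG were in 37.5% of the members' promoters and 23.9% of those of measured genes, and GCGTG in 33.3% and 45.2%. The AP-1 letters TGACTCA or TGAGTCA were in 1 of the 24, that of MMP7, or 4.17%, against 3.57% of measured genes. Of the 10 called members 6 had a promoter in the table. ADAMTS12 and MMP15 held no core match, and the 4 that held one are printed here, a choice made after their values were seen. Capitals mark the core letters on either strand, and in ADAMTS17 the run CACGTG holds a match on each strand. The windows are chr4:72569172-72569471 (minus strand) for ADAMTS3, chr15:100341926-100342225 (minus strand) for ADAMTS17, chr14:22836335-22836634 (plus strand) for MMP14 and chr22:32801455-32801754 (plus strand) for TIMP3, and each is written 5′ to 3′ along the gene.
ADAMTS3: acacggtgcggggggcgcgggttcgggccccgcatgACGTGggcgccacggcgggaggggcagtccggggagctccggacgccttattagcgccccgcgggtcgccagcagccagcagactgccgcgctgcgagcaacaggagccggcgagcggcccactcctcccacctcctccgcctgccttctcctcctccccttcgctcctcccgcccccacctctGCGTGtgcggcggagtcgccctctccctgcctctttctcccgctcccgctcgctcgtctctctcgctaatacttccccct
ADAMTS17: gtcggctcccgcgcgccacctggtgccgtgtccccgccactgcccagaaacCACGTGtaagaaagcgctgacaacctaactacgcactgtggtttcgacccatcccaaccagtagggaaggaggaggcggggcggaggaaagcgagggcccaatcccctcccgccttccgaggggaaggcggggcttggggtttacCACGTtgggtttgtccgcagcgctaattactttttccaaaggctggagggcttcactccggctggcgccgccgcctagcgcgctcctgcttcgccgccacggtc
MMP14: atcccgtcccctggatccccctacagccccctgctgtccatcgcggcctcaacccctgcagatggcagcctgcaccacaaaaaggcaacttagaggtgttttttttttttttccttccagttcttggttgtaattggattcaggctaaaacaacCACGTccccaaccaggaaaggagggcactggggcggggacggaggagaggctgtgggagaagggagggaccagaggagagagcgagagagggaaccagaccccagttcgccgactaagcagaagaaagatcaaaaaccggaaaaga
TIMP3: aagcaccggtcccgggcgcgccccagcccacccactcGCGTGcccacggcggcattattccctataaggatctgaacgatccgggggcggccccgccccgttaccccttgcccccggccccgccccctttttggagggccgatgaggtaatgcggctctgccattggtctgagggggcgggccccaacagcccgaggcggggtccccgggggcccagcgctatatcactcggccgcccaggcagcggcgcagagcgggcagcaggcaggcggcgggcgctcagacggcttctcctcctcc
These matches are letters in a window. No binding was measured, and the share of members with a match was close to that of measured genes.

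Hypoxia against normoxia, both with non-targeting siRNA, changed few members. The procollagen protease ADAMTS3 and the proteoglycan-cleaving ADAMTS15 fell, no member was called higher by the probe set used, and 41 of 43 were not called. The share called was 4.65%, against 12.3% of all genes tested (3.37% higher, 8.95% lower). The split of 0 higher and 2 lower became 3 and 2 after quantile normalization, 4 and 2 after cyclic loess and 1 and 2 after median centring. The median log2 change was 0.01 over the members and -0.03 over all genes, and the members' changes ran from -0.68 to 0.37. The arrays of the 2 groups did not overlap for 14 members (32.6%), against 38.4% of all genes.

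ADAMTS3, which removes the amino-terminal propeptide of procollagen and is known to help activate VEGF-C, measured 6.25, 6.01 and 6.32 in the hypoxic control, against 6.91, 6.81 and 6.90 in the normoxic control. Every hypoxic array was below every normoxic one (log2 change -0.68, SE 0.18, 1.60-fold lower, adjusted p = 0.0353). With HIF1A siRNA it measured 6.61, 6.18 and 5.87 and with HIF2A siRNA 6.43, 6.0 and 6.46, so the arrays of both siRNA groups overlapped those of the hypoxic control and lay below all normoxic arrays. The call against normoxia was lost without any 1 of the 6 arrays of this comparison, with adjusted p-values up to 0.14.

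ADAMTS15, a proteoglycan-cleaving enzyme, measured 6.40, 6.33 and 6.39 in the hypoxic control, against 6.88, 6.77 and 6.84 in the normoxic control (log2 change -0.46, SE 0.11, 1.38-fold lower, adjusted p = 0.0175). The groups did not overlap. The call was lost without hypoxic control replicate 2 (adjusted p = 0.0706) and without normoxic control replicates 1 (0.0779) or 3 (0.0661).

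The members nearest to a call in hypoxia were TIMP3 (log2 change 0.37, SE 0.12, adjusted p = 0.0679), MMP15 (-0.27, SE 0.09, adjusted p = 0.0777) and ADAMTS17 (-0.25, SE 0.09, adjusted p = 0.0799), and in each of them the arrays of the groups did not overlap. TIMP3 depended on the scaling of the arrays: it was called higher in hypoxia after quantile normalization (0.47, adjusted p = 0.00423), cyclic loess (0.51, adjusted p = 0.00142) and centring on the array median (0.43, adjusted p = 0.0122), and also in a fit of these 2 groups alone (adjusted p = 0.026) and with array weights (adjusted p = 0.0101). By the deposited values TIMP3 measured 11.64, 11.65 and 11.53 in the hypoxic control, against 11.20, 11.21 and 11.30 in the normoxic control. The 2 groups were apart by more than their own spread, but the adjusted p missed the threshold.

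The gelatinases and the activator MMP14 were not called in hypoxia. MMP2, the gelatinase that MMP14 and TIMP2 activate at the cell surface, measured 12.16, 12.09 and 11.85 in the hypoxic control, against 11.88, 11.89 and 11.91 in the normoxic control. The arrays overlapped, with a log2 change of 0.14 and a 95% interval of -0.09 to 0.38. MMP9, the other gelatinase, measured 5.78, 6.08 and 5.84 in the hypoxic control, against 5.73, 5.88 and 5.73 in the normoxic control. These arrays overlapped too (0.12, interval -0.15 to 0.39). The interval for MMP14 was -0.11 to 0.34, around a log2 change of 0.12. The intervals are not adjusted for the number of genes.

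Of the other inhibitors, TIMP1, a broad inhibitor that is weak against membrane-type MMPs, measured 13.00, 13.08 and 12.97 in the hypoxic control, against 12.77, 12.81 and 12.92 in the normoxic control. All 3 hypoxic arrays were above the normoxic ones, but the difference was not called (0.18, SE 0.13, adjusted p = 0.442). TIMP2 measured 12.17, 11.97 and 11.97, against 11.93, 11.93 and 11.98 in the normoxic control, and TIMP4 measured 5.54, 5.81 and 5.57, against 5.60, 5.64 and 5.68 in the normoxic control. Both overlapped between the groups, with log2 changes of 0.09 and 0.00 (SE 0.11 and 0.13).

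**Figure D2:**
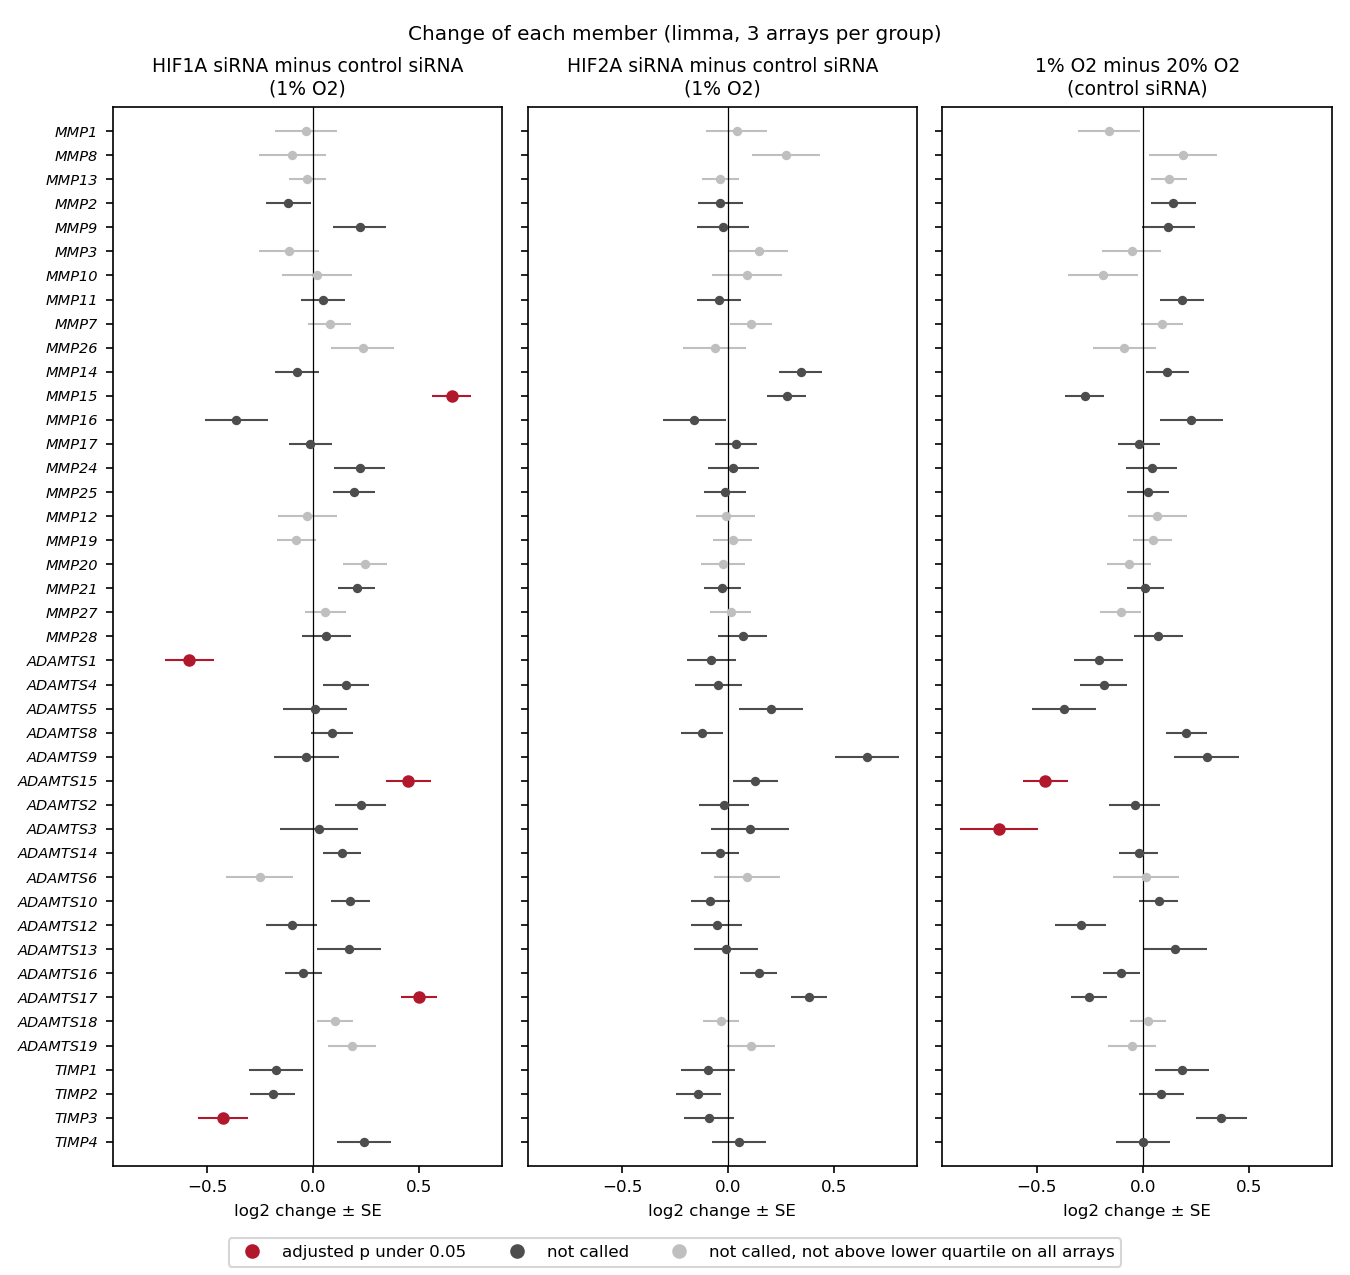
Log2 change of each member with limma's standard error (n = 3 arrays per group) for HIF1A siRNA minus the hypoxic control, HIF2A siRNA minus the hypoxic control, and 1% minus 20% oxygen. Red marks an adjusted p under 0.05, which 5, 0 and 2 members passed, and light grey marks members that were not above the lower quartile on all arrays.

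HIF1A siRNA against the hypoxic control raised MMP15, ADAMTS17 and ADAMTS15 and lowered ADAMTS1 and TIMP3, while 38 of 43 members were not called. The share called was 11.6%, against 11.1% of all genes tested. All genes called by this test were mostly lower (0.857% of genes higher and 10.2% lower), whereas 3 of the 5 members called were higher. The split of 3 higher and 2 lower became 3 and 1 after quantile normalization and 4 and 1 after median centring, and a fit of these 2 groups alone called 0 members (137 genes in all, against 1573). The median log2 change was 0.05 over the members and -0.05 over all genes. The arrays of the groups did not overlap for 11 members (25.6%), against 30.8% of all genes. This comparison shares the hypoxic control arrays with the comparison of oxygen levels, so a high or low control array moves both in opposite directions. In bulk RNA, fewer cells of a kind and less RNA per cell cannot be told apart.

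MMP15, the membrane-type MMP also known as MT2-MMP, measured 7.54, 7.41 and 7.46 with HIF1A siRNA, against 6.89, 6.86 and 6.70 in the hypoxic control. Every HIF1A siRNA array was above every array of the other 3 groups, and the log2 change was 0.65 (SE 0.09, 1.57-fold higher, adjusted p = 0.00214). It measured 7.08, 7.04 and 7.16 with HIF2A siRNA and 7.04, 7.19 and 7.05 in the normoxic control, which overlapped each other. The call held without any 1 of the 12 arrays, with log2 changes of 0.59 to 0.69.

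ADAMTS17, an enzyme linked to microfibrils of connective tissue, measured 7.10, 7.11 and 7.12 with HIF1A siRNA, against 6.5, 6.68 and 6.65 in the hypoxic control (log2 change 0.50, SE 0.09, 1.41-fold higher, adjusted p = 0.00628). The groups did not overlap, and this call also held without any 1 of the 12 arrays. The arrays with HIF2A siRNA, at 7.0, 7.02 and 6.96, were likewise above all hypoxic control arrays. The normoxic control measured 6.85, 6.95 and 6.80.

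ADAMTS15 measured 6.91, 6.94 and 6.61 with HIF1A siRNA, against 6.40, 6.33 and 6.39 in the hypoxic control (log2 change 0.45, SE 0.11, 1.36-fold higher, adjusted p = 0.0249). All 3 arrays were above the control, with replicate 3 the lowest of them, and they spanned the normoxic values. The call was lost without HIF1A siRNA replicate 1 (adjusted p = 0.054) and without hypoxic control replicates 1 (0.0836), 2 (0.0568) or 3 (0.0629).

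ADAMTS1, a proteoglycan-cleaving enzyme that is also known to restrain angiogenesis, measured 8.87, 9.09 and 8.67 with HIF1A siRNA, against 9.49, 9.50 and 9.39 in the hypoxic control. It fell by 0.59 on the log2 scale (SE 0.12, 1.5-fold lower, adjusted p = 0.0117), with no overlap between the groups. With HIF2A siRNA it measured 9.44, 9.30 and 9.41 and in the normoxic control 9.80, 9.62 and 9.59, both above all HIF1A siRNA arrays. The fall against the hypoxic control was -0.31 and no longer called after quantile normalization, and the call was also lost without hypoxic control replicate 1 (adjusted p = 0.0557).

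TIMP3, the inhibitor held in the matrix, measured 11.41, 11.21 and 10.92 with HIF1A siRNA, against 11.64, 11.65 and 11.53 in the hypoxic control (log2 change -0.43, SE 0.12, 1.34-fold lower, adjusted p = 0.0437). Replicate 3 was the lowest of all 12 arrays. Leaving it out gave -0.30 and an adjusted p of 0.126, and the call was lost in 11 of the 12 omissions of 1 array, with adjusted p-values up to 0.157; it held without HIF1A siRNA replicate 1. It was also lost after median centring (-0.30, adjusted p = 0.0597).

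Members were also grouped by their mean level. All 7 members whose mean lay above the upper quartile, namely TIMP1, TIMP2, TIMP3, MMP2, MMP14, MMP16 and ADAMTS1, had a negative log2 change, with a median of -0.19, against a median of -0.25 over the 3549 genes that bright. Of 23 members between the quartiles, 18 had a positive change and the median was 0.15, against -0.04 over 7971 genes. The 13 members below the lower quartile had a median of 0.02, against 0.08 over 2712 genes. The HIF1A siRNA arrays have the smaller range described above, and its part in these values was not tested.

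The gelatinases and the other inhibitors were not called. MMP9 measured 6.13, 6.14 and 6.08 with HIF1A siRNA, against 5.78, 6.08 and 5.84 in the hypoxic control, and the groups met at 6.08 (log2 change 0.22, SE 0.12, adjusted p = 0.247). MMP2 measured 11.96, 12.03 and 11.76 with HIF1A siRNA, and its arrays overlapped those of the hypoxic control (-0.12, SE 0.11). TIMP1 measured 12.97, 13.00 and 12.54, and TIMP2 11.92, 11.96 and 11.64, with replicate 3 the lowest in each. Their log2 changes were -0.18 (SE 0.13) and -0.19 (SE 0.11), neither of them called. TIMP4 measured 5.65, 6.0 and 5.99, overlapping the control (0.24, SE 0.13, adjusted p = 0.22).

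HIF2A siRNA against the hypoxic control left no member called by limma, and 4 members had an unadjusted p under 0.05. Of all genes tested 0.00703% were called, which is 1 gene, EPAS1 itself. The median log2 change was -0.01 over the members and over all genes. The arrays did not overlap for 7 members (16.3%), against 9.36% of all genes. The 4 members with an unadjusted p under 0.05 were ADAMTS9 (log2 change 0.66, SE 0.15, adjusted p = 0.796), ADAMTS17 (0.38, SE 0.09, adjusted p = 0.796), MMP14 (0.34, SE 0.10, adjusted p = 1) and MMP15 (0.28, SE 0.09, adjusted p = 1), and in each the 3 HIF2A siRNA arrays were above the 3 control arrays. This comparison shares the hypoxic control with the preceding ones.

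ADAMTS9, which cuts the proteoglycans versican and aggrecan, measured 8.23, 8.0 and 8.40 with HIF2A siRNA, against 7.79, 7.34 and 7.54 in the hypoxic control. The HIF2A siRNA arrays were also above those with HIF1A siRNA, at 7.77, 7.49 and 7.31, and those of the normoxic control, at 7.31, 7.21 and 7.25. Against normoxia the rise with HIF2A siRNA was 0.96 on the log2 scale (SE 0.15, 1.94-fold, adjusted p = 0.00336), the largest change of any member in any of the 6 comparisons, and it held without any 1 of the 12 arrays.

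MMP14, the membrane-type MMP that activates MMP2, measured 9.52, 9.44 and 9.37 with HIF2A siRNA, against 9.11, 9.17 and 9.02 in the hypoxic control. These arrays were above those of all other groups, which were 8.97, 9.21 and 8.88 with HIF1A siRNA and 8.97, 8.95 and 9.03 in the normoxic control. The rise over normoxia was 0.46 (SE 0.10, 1.37-fold, adjusted p = 0.0182). It lost its call without HIF2A siRNA replicates 1 (adjusted p = 0.0731) or 2 (0.0605), or any normoxic control replicate (0.0557 to 0.0746).

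The remaining inhibitors and gelatinases overlapped between HIF2A siRNA and the hypoxic control except TIMP2. MMP2 measured 12.06, 11.94 and 11.99, MMP9 5.69, 6.11 and 5.83 and TIMP1 13.05, 12.85 and 12.87 with HIF2A siRNA, with log2 changes of -0.04, -0.02 and -0.10. TIMP2 measured 11.96, 11.86 and 11.87, just below all hypoxic control arrays (-0.14, SE 0.11, adjusted p = 1). TIMP3 measured 11.59, 11.46 and 11.49 and TIMP4 5.74, 5.82 and 5.52 (-0.09 and 0.05).

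**Figure D3:**
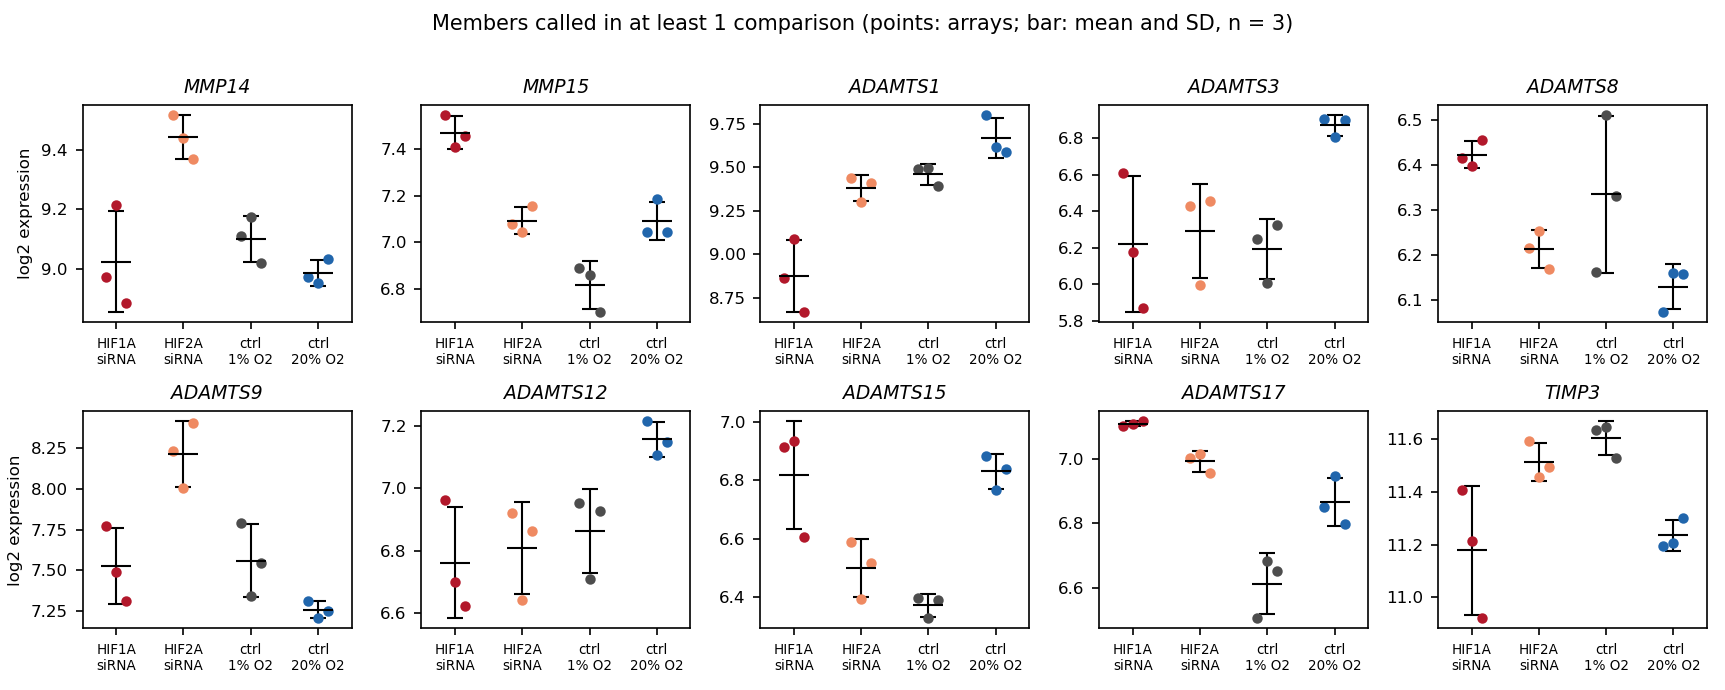
Log2 expression on each array (points) with mean and SD (bars, n = 3) for the 10 members called in at least 1 comparison, in cells with HIF1A siRNA, HIF2A siRNA or control siRNA at 1% oxygen and control siRNA at 20% oxygen. MMP15 and ADAMTS17 are highest with HIF1A siRNA, ADAMTS9 and MMP14 with HIF2A siRNA, and ADAMTS3 and ADAMTS12 in the normoxic control; each vertical axis has its own range and does not start at 0.

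Set directly against HIF2A siRNA, HIF1A siRNA gave higher MMP15 and lower ADAMTS9, ADAMTS1 and MMP14, and 39 of 43 members were not called. The share called was 9.3%, against 9.43% of all genes tested (0.899% higher, 8.53% lower). The split of 1 higher and 3 lower turned to 3 and 1 after quantile normalization, 2 and 1 after cyclic loess and 4 and 2 after median centring, and a fit of these 2 groups alone called 0 members (127 genes in all, against 1342). MMP15 differed by 0.38 on the log2 scale (SE 0.09, adjusted p = 0.0313), ADAMTS9 by -0.69 (SE 0.15, 1.61-fold lower, adjusted p = 0.0221), ADAMTS1 by -0.51 (SE 0.12, adjusted p = 0.0246) and MMP14 by -0.42 (SE 0.10, adjusted p = 0.0316). With the arrays rescaled, MMP14 lost its call after quantile normalization (-0.14, adjusted p = 0.353), cyclic loess (-0.16, adjusted p = 0.335) and median centring (-0.28, adjusted p = 0.0674), and ADAMTS1 after quantile normalization (-0.23, adjusted p = 0.112) and cyclic loess (-0.25, adjusted p = 0.0931). After quantile normalization ADAMTS9 was called at -0.45 and MMP15 at 0.60. The arrays of the groups did not overlap in any of these 4, nor in 19 members in all (44.2%), against 30.5% of all genes. Without HIF1A siRNA replicate 3 none of the 4 was called (adjusted p of 0.0821 for ADAMTS9, 0.079 for ADAMTS1, 0.0743 for MMP15 and 0.104 for MMP14), and ADAMTS15 was (0.43, adjusted p = 0.0384). Each was also lost without HIF2A siRNA replicate 1 or 3, with adjusted p-values up to 0.123. MMP14 and MMP15 were lost as well without some normoxic control arrays (0.0512 to 0.0531), which enter only through the shared variance, and MMP15 without HIF2A siRNA replicate 2 (0.0555).

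Against the normoxic control, 6 members were called with HIF1A siRNA at 1% oxygen, 3 higher and 3 lower, which is 14% against 35% of all genes tested. The split became 9 and 2 after quantile normalization, 7 and 2 after cyclic loess and 16 and 2 after median centring. The called genes of the whole array were mostly lower (30.4% lower, 4.67% higher), and the median log2 change was 0.09 over the members and -0.12 over all genes. The arrays did not overlap for 18 members (41.9%), against 54.5% of all genes. ADAMTS1 was lower by 0.79 (fold 1.73, adjusted p = 0.00273), on every array, and its call held without any 1 of the 12 arrays. Its size depended on the scaling, at -0.37 after quantile normalization and -0.38 after cyclic loess, where it was still called. ADAMTS3 differed by -0.65 (adjusted p = 0.0202) and MMP15 by 0.38 (adjusted p = 0.0114). ADAMTS12, which is known to cut the cartilage protein COMP, measured 6.96, 6.70 and 6.62 with HIF1A siRNA, against 7.21, 7.11 and 7.15 in the normoxic control (-0.40, adjusted p = 0.0269). The call was lost after quantile normalization (-0.16, adjusted p = 0.205), cyclic loess (-0.24, adjusted p = 0.0833) and median centring (-0.22, adjusted p = 0.0946). It measured 6.92, 6.64 and 6.86 with HIF2A siRNA and 6.95, 6.71 and 6.93 in the hypoxic control, so all 9 hypoxic arrays were below the 3 normoxic ones.

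ADAMTS8, a proteoglycan-cleaving enzyme, measured 6.42, 6.40 and 6.46 with HIF1A siRNA, against 6.07, 6.16 and 6.16 in the normoxic control (0.29, adjusted p = 0.0394). Its hypoxic control arrays, at 6.16, 6.51 and 6.33, spread over most of the gene's range, and HIF2A siRNA gave 6.22, 6.25 and 6.17. ADAMTS17 differed from normoxia by 0.24 (adjusted p = 0.0465). Rescaling gave larger differences from normoxia for the 3 members that were higher: after quantile normalization 0.50 for ADAMTS17 and 0.69 for MMP15, and after median centring 0.47 for ADAMTS8. The calls of ADAMTS17, ADAMTS8, ADAMTS12, ADAMTS3 and MMP15 against normoxia were lost in 11, 9, 5, 3 and 1 of the 12 omissions of 1 array, with adjusted p-values up to 0.143. Without HIF1A siRNA replicate 3, only ADAMTS1 and MMP15 of these 6 were called (adjusted p = 0.00763 and 0.0286).

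With HIF2A siRNA at 1% oxygen, ADAMTS9 and MMP14 were the 2 members called against the normoxic control, both higher, which is 4.65% against 9.64% of all genes tested (2.85% higher, 6.79% lower). The split of 2 higher and 0 lower became 3 and 1 after quantile normalization or cyclic loess and 3 and 2 after median centring. The arrays did not overlap for 15 members (34.9%), against 36.7% of all genes. The median log2 change was 0.05 over the members and -0.05 over all genes. The 3 comparisons with normoxia share their normoxic arrays.

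The 43 members varied little between arrays of a group. The median SD within a group was 0.10 on the log2 scale over the members and 0.14 over all genes, and it was largest with HIF1A siRNA (0.14, against 0.20 over all genes) and smallest in the normoxic control (0.06, against 0.09). Single probe sets stand for most members, but MMP16, a membrane-type MMP, and ADAMTS6 have a further one. For MMP16 the probe set used gave a log2 change of 0.23 (SE 0.15) between hypoxia and normoxia and was not called. The other gave 0.51 (SE 0.14, limma unadjusted p = 0.0043). No adjusted p was computed for it, but ADAMTS3 was called at a similar unadjusted p (0.0036). Whether MMP16 counts as higher in hypoxia therefore depends on the probe set. With the probe sets of a gene averaged, the calls in hypoxia stayed at 0 higher and 2 lower. In all, 4 probe sets pair a symbol of the family with a second gene, the one with MMP19 among them, and none was used for a member. Another of the 4 pairs TIMP3 with SYN3 and cannot be assigned to either. It gave log2 changes of 0.10 (SE 0.10) in hypoxia and 0.09 (SE 0.10) with HIF1A siRNA against the hypoxic control. The TIMP3 probe set used gave 0.37 and -0.43.

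**Figure D4:**
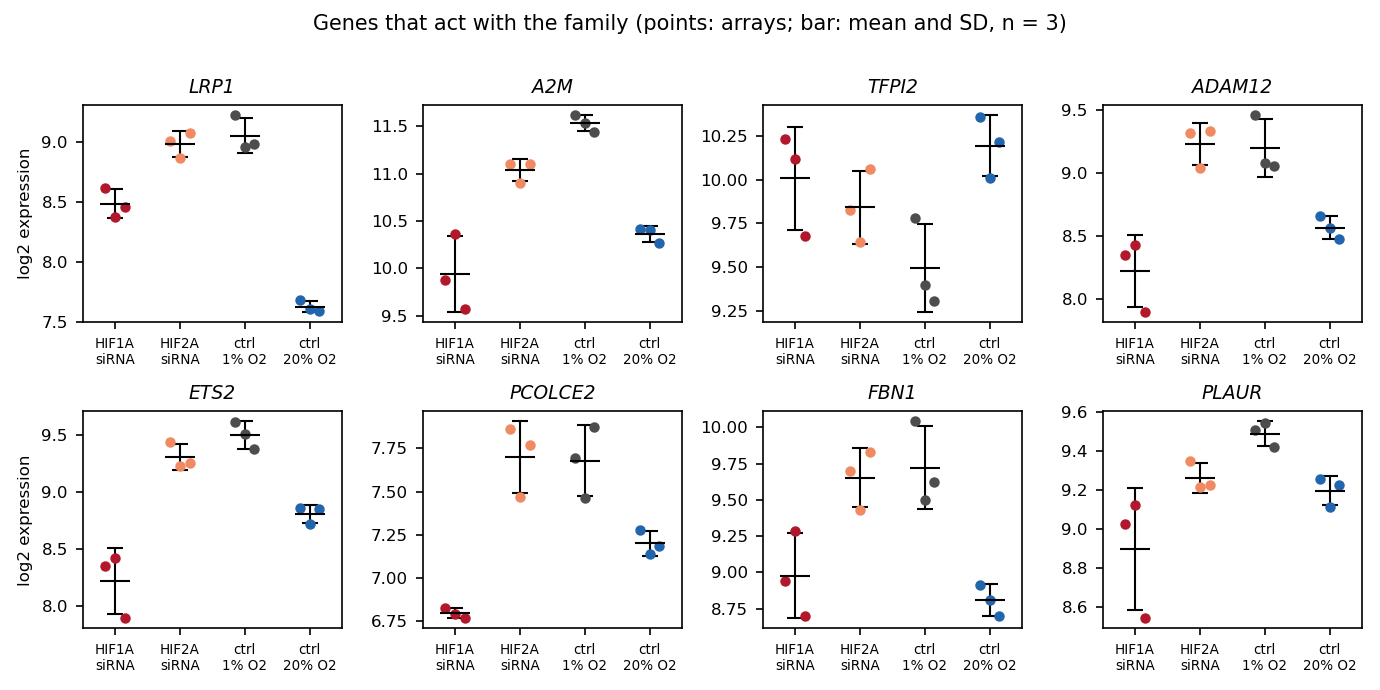
Log2 expression on each array (points) with mean and SD (bars, n = 3) for 8 genes that act with the family, in the same 4 groups. LRP1 and A2M are higher in the hypoxic than in the normoxic control (log2 changes of 1.43 and 1.17), and A2M, ETS2, ADAM12, PCOLCE2, FBN1, LRP1 and PLAUR are lower with HIF1A siRNA than in the hypoxic control; each vertical axis has its own range and does not start at 0.

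Genes that act with these proteases were followed in 8 lists of regulators, related proteases and substrates. Of 78 measured genes in these lists, 8 rose and 2 fell in hypoxia, which is 12.8% against 12.3% of all genes tested, and 0 rose and 12 fell with HIF1A siRNA, which is 15.4% against 11.1%. With HIF2A siRNA against the hypoxic control limma called 0 of the 78. The values for hypoxia (hypoxic minus normoxic control) and for HIF1A siRNA (HIF1A siRNA minus hypoxic control) are given side by side, and they share the hypoxic control arrays with opposite sign.

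Among 14 activators and other regulators of MMPs, 2 rose and 1 fell in hypoxia, and 0 rose and 2 fell with HIF1A siRNA. LRP1, the endocytic receptor that clears MMPs and their inhibitor complexes from the cell surface, measured 9.22, 8.96 and 8.98 in the hypoxic control, against 7.68, 7.61 and 7.59 in the normoxic control. The groups lay far apart (log2 change 1.43, SE 0.11, adjusted p = 2.27e-05), and HIF2A siRNA, at 9.01, 8.86 and 9.07, overlapped the hypoxic control. With HIF1A siRNA it measured 8.61, 8.38 and 8.46, below all arrays of both other hypoxic groups (-0.57, SE 0.11, adjusted p = 0.00951) and above all normoxic ones (0.86, SE 0.11, adjusted p = 0.00215, and 1.28 after cyclic loess). The fall with HIF1A siRNA was no longer called after quantile normalization or cyclic loess, at log2 changes down to -0.28.

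A2M, alpha-2-macroglobulin, which traps proteases of many classes, measured 11.62, 11.54 and 11.44 in the hypoxic control, against 10.42, 10.40 and 10.26 in the normoxic control (log2 change 1.17, SE 0.17, adjusted p = 0.00157). With HIF1A siRNA it measured 9.88, 10.37 and 9.57, below all hypoxic control arrays (log2 change -1.59, SE 0.17, adjusted p = 3.91e-04). Replicates 1 and 3 were also below all normoxic arrays, and replicate 2 lay among them. With HIF2A siRNA it measured 11.10, 10.90 and 11.10, between both controls. TFPI2, a serine protease inhibitor of the matrix, measured 9.78, 9.40 and 9.30 in the hypoxic control, against 10.36, 10.01 and 10.22 in the normoxic control. It was the gene of this list that fell (-0.70, SE 0.18, adjusted p = 0.0277), and it lost its call without hypoxic control replicates 2 or 3 or normoxic control replicates 1 or 3, with adjusted p-values up to 0.116.

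Of 13 AP-1, ETS and RUNX factors, which are known to bind promoters of MMP genes, 1 rose in hypoxia and 3 fell with HIF1A siRNA. ETS2 measured 8.36, 8.42 and 7.89 with HIF1A siRNA, against 9.62, 9.51 and 9.37 in the hypoxic control (log2 change -1.28, SE 0.14, adjusted p = 5.15e-04), and it was higher in hypoxia than in the normoxic control (0.69, SE 0.14, adjusted p = 0.00931). The arrays did not overlap in either comparison. ETV1 (-0.58) and ETS1 (-0.53) were the other 2 that fell with HIF1A siRNA. ETS1 lost its call after quantile normalization (-0.25, adjusted p = 0.15), cyclic loess (-0.28, adjusted p = 0.142) and median centring (-0.41, adjusted p = 0.0506), and ETV1 was called at -0.34 after quantile normalization. Of 8 ADAM genes, 2 rose and 1 fell in hypoxia and 1 fell with HIF1A siRNA. ADAM12, a membrane-bound relative that sheds growth factors, measured 8.35, 8.43 and 7.90 with HIF1A siRNA, against 9.46, 9.08 and 9.06 in the hypoxic control (-0.97, SE 0.16, adjusted p = 0.0051), and it was higher in hypoxia (0.63, SE 0.16, adjusted p = 0.0262).

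Of 7 genes of the BMP1, tolloid and meprin group, which trims the other end of procollagen, PCOLCE2, an enhancer of BMP1, was the gene called in both comparisons. It measured 6.83, 6.79 and 6.77 with HIF1A siRNA, against 7.69, 7.46 and 7.87 in the hypoxic control (-0.88, SE 0.13, adjusted p = 0.00258), and was higher in hypoxia than in normoxia by 0.48 (SE 0.13, adjusted p = 0.0335). Of 14 matrix substrates, FBN1, fibrillin of the microfibrils (0.91, adjusted p = 0.00775), and TNC, tenascin (0.45, adjusted p = 0.0445), rose in hypoxia, while FBN1 (-0.75, adjusted p = 0.0258) and DCN, the proteoglycan decorin (-0.65, adjusted p = 0.0181), fell with HIF1A siRNA. With HIF1A siRNA, FBN1 was called at -0.48 after quantile normalization. Of 10 cathepsins, cystatins and heparanase, 0 were called in hypoxia, and CTSH and HPSE fell with HIF1A siRNA (-0.57 and -0.54). Of 7 genes of the plasminogen system, which activates several MMPs, PLAUR, the urokinase receptor, was the one called, lower with HIF1A siRNA (-0.59, SE 0.14, adjusted p = 0.0235), but not after quantile normalization (-0.31, adjusted p = 0.0525). Of 5 ADAMTS-like genes 0 were called in either comparison. The rises of LRP1, A2M, ETS2 and FBN1 in hypoxia held without any 1 of the 12 arrays. So did the falls of A2M, ADAM12, ETS2, LRP1 and PCOLCE2 with HIF1A siRNA. A fit of HIF1A siRNA and the hypoxic control alone called the falls of A2M, ETS2 and PCOLCE2, but not those of ADAM12, LRP1 or the other listed genes. The calls of ADAM12 and PCOLCE2 in hypoxia were each lost in 5 of the 12 omissions, TNC in 8, and with HIF1A siRNA ETS1 and CTSH in 10, FBN1 in 4, PLAUR and HPSE in 3, and DCN and ETV1 in 2, with adjusted p-values up to 0.188. With array weights, TIMP3, ETS1, CTSH, PLAUR, DCN, ETV1 and FBN1 were not called between HIF1A siRNA and the hypoxic control. In the same comparison TIMP3, ETS1 and CTSH were not called with the replicate number as a block.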

How the data were processed

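RNA was labelled with the Affymetrix whole-transcript sense target method and hybridised to 12 arrays, per the labels' protocols. The deposited log2 values, between 1.14 and 14.3 over 22011 probe sets, were used as the authors left them. Partek is named in the submitters' processing notes. Background correction, summarization and normalization were not stated in any source used here, and base 2 was inferred from the range of the values. The platform annotation gives 1 gene symbol to 14432 probe sets, several to 2408 and none to 5171, and those with several or none were not named. Each of the 14232 genes was read from its single-symbol probe set with the highest mean over the 12 arrays. A model with 4 group means was fitted to all probe sets with limma 3.58.1 (lmFit and eBayes) in R 4.3.3, and p-values were adjusted by Benjamini-Hochberg over the 14232 genes in each of 6 comparisons, with calls at 0.05. The steps were also run on simulated data with independent normal noise. Those data held no array-wide shifts, so the run does not address how the calls depend on scaling. Named genes were all members called in any comparison, the gelatinases, MMP14 and the TIMPs, and up to 4 called genes per list of partners. The members and lists were chosen with earlier results of these data known. Replicate numbers were not shown to pair the samples: deviations of same-numbered arrays correlated at -0.488 to 0.597, and 6 of 18 pairs were over 0.1. The number of arrays limits the precision.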

Additional observations from a re-analysis of the deposited data

How the results depend on the processing

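Counts of called members moved with the scaling of the arrays and with the groups that entered the fit. In hypoxia against normoxia 2 members were called, against 5 after quantile normalization, 6 after cyclic loess, 4 with only the groups compared and 7 with array weights. HIF1A siRNA against the hypoxic control gave 5, and 0 with only the groups compared; HIF1A against HIF2A siRNA gave 4, and 0 with only the groups compared. For HIF1A siRNA against normoxia there were 6 (3 higher, 3 lower), against 11 after quantile normalization (9 higher, 2 lower), 9 after cyclic loess (7 higher, 2 lower), 18 after median centring (16 higher, 2 lower) and 3 with only the groups compared. For HIF2A siRNA against normoxia there were 2, against 4 after quantile normalization, 4 after cyclic loess, 5 after median centring, 4 with only the groups compared and 7 with array weights. Higher and lower calls for HIF1A against HIF2A siRNA were 1 and 3, against 3 and 1 after quantile normalization. Quantile normalization moved the median of all genes from -0.122 to 0.0811 for HIF1A siRNA against normoxia, so directions of small changes there are relative to the scaling. Set against the array median in place of the lower quartile, 10 members and not 29 were above it on all arrays. Leaving out 1 array gave 0 to 3 calls in hypoxia, 2 to 5 for HIF1A siRNA and 0 to 0 for HIF2A siRNA against the hypoxic control, 0 to 5 between the siRNAs, and 1 to 7 and 1 to 5 for HIF1A and HIF2A siRNA against normoxia. With the replicate number as a block the counts were 2, 4, 0, 4, 6 and 2 in the same order. The ADAM gene ADAM19 was not called between HIF1A siRNA and normoxia by the deposited values. It measured 8.2, 7.8 and 7.7 with HIF1A siRNA, against 8.0, 7.9 and 8.0 in the normoxic control, and the arrays overlapped. From that small negative difference it turned positive, at 0.36 after quantile normalization and 0.29 after cyclic loess. The cause of these shifts was not tested.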
